A study of Mus musculus with 10 samples.

Results

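The genes described here are 10 cytosolic and mitochondrial heat shock genes, measured in mouse liver with and without Pml, which encodes the scaffold protein of PML nuclear bodies. They are Hspa1a, Hspa1b, Hspb1, Bag3, Dnajb1, Hsph1, Hsp90aa1, Hspa8, Hspe1 and Hspd1, taken by gene symbol, and all 10 were among the 13942 genes tested. Liver RNA came from female BALB/cByJ mice aged 3 months, on 1 Affymetrix Mouse Gene 2.1 ST array per sample. The groups were Pml KO mice whose food was removed for 6 h (fasted knockout, 3 arrays), Pml wt mice whose food was removed for 6 h (fasted wild type, 3), Pml KO mice fed ad libitum (fed knockout, 2) and Pml wt mice fed ad libitum (fed wild type, 2). The protocol field gives food removal for all 10 samples, so the feeding state was taken from the sample titles. The sources used here do not describe the Pml allele, and they do not give the time of day at which liver was taken. The labels do not say that each array is a separate animal, so the spread behind the p-values may be partly technical.

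Heat shock proteins are chaperones that hold, refold or hand on unfolded proteins. HSP70 proteins bind exposed hydrophobic stretches in cycles driven by ATP, J domain proteins such as Dnajb1 deliver substrates to them, and exchange factors such as Bag3 and Hsph1 reset them. Heat shock factor 1 (HSF1) binds inverted repeats of the unit GAA in the promoters of the inducible members when unfolded protein builds up. In liver the abundance of several of these transcripts also follows feeding, body temperature and time of day.

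The promoters are shown first because letters of this type of element occur in 6 of the 8 members with a window, and because Hspa1a and Hspa1b are near-identical copies. Sequences are from RefSeq, assembly GRCm38.p6, which held promoter windows for 8 of the 10 genes, with none for Hspa8 and Hsp90aa1. Capitals mark matches to the motifs named below and, in Hspa1b and Hspa1a, also the 3 bases upstream of the start at which the copies differ. The Hspa1b and Hspa1a lines give the 250 bases before the start (chr17:34959239-34959488 and chr17:34972157-34972406, both minus strand). The other lines give 60 bases around the matches of Hspb1 (chr5:135887779-135887838, plus strand), Hsph1 (chr5:149636336-149636395, minus strand) and Hspe1 (chr1:55088038-55088097, plus strand).
Hspa1b: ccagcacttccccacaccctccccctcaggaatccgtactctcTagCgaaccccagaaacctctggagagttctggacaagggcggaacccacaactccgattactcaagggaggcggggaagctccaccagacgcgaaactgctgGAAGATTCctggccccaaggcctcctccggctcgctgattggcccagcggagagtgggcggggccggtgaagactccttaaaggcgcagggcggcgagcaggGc
Hspa1a: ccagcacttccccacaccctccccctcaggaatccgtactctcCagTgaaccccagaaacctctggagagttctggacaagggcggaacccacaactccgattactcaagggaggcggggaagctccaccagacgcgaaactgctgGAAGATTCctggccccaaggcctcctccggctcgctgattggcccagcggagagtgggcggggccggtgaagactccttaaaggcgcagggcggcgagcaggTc
Hspb1: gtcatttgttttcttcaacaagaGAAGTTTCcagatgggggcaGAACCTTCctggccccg
Hsph1: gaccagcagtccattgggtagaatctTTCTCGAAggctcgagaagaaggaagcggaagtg
Hspe1: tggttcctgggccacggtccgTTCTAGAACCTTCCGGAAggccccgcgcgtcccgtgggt

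Over 300 bases, from 250 before to 50 after the start, the Hspa1a and Hspa1b promoters were identical at 296 bases. The differences, with the Hspa1a base first and positions counted from the first of the 300 bases, were C44T, T47C, T249G and C276T. The motifs searched, on both strands of the 250 bases before the start, overlap each other: GAANNTTC, TTCNNGAA, and 3 alternating units in a row (GAANNTTC with TTCNN directly before it or NNGAA directly after it). GAANNTTC was present in 5 of the 8 genes (Hspa1a, Hspa1b, Hspb1, Hspd1 and Hspe1), and in 7.73% of 27025 genes. TTCNNGAA was present in 3 of 8 (Hspd1, Hspe1 and Hsph1), against 8.11% of all genes. The run of 3 units was present in Hspd1 and Hspe1, against 0.514% of all genes. Hspd1 and Hspe1 face away from each other on chromosome 1, and the 5 matches of both windows are the same bases (chr1:55088059-55088076), which are the capitals in the Hspe1 line. The windows of Bag3 and Dnajb1 held none of the 3 motifs, which says only that these letters are not in those windows. A second Hspd1 start had no match in its window either. These are matches of letters, not measured binding.

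Values are log2 intensities of 1 probe set per gene, and they are not compared between genes, since probe brightness differs. Array medians lay between 5.44 and 5.57 on this scale. Pml lay between 6.05 and 6.91 on the 5 knockout arrays and between 7.50 and 8.37 on the 5 wild type arrays. The arrays of fasted knockout did not form 1 group for circadian clock genes. A clock score, the mean of 5 genes that peak with Arntl minus the mean of 8 that peak opposite to it, was -2.33, -2.0 and 2.30 in fasted knockout, against 2.71, 2.12 and 2.32 in fasted wild type. It was -1.75 and -1.67 in fed knockout, against -0.65 and -1.07 in fed wild type. All 6 hepatocyte markers lay above the array median on all 10 arrays, and none of 6 neutrophil markers did so on any.

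In fasted liver, 4 of the 10 genes were lower in knockout than in wild type, all of them cytosolic and stress-inducible. Hspa1b was 4.96-fold lower, Hspb1 2.62-fold, Bag3 2.09-fold and Dnajb1 1.59-fold (adjusted p under 0.05 in limma). Hspa1a, Hsph1 and Hsp90aa1, which are inducible too, did not pass the test. Genes called lower made up 4.43% of all genes tested in that comparison, and genes called in either direction 11.1%. The log2 differences of all 10 members were below 0, with a median of -0.67, against a median of 0.01 over all genes. The arrays of both genotypes did not overlap for 5 members, Hsp90aa1 beside the 4 called genes, against 15.1% of all genes that were lower without overlap. The constitutive Hspa8 and the mitochondrial pair Hspd1 and Hspe1 had small differences, between -0.20 and -0.11, and were not called.

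**Figure D1:**
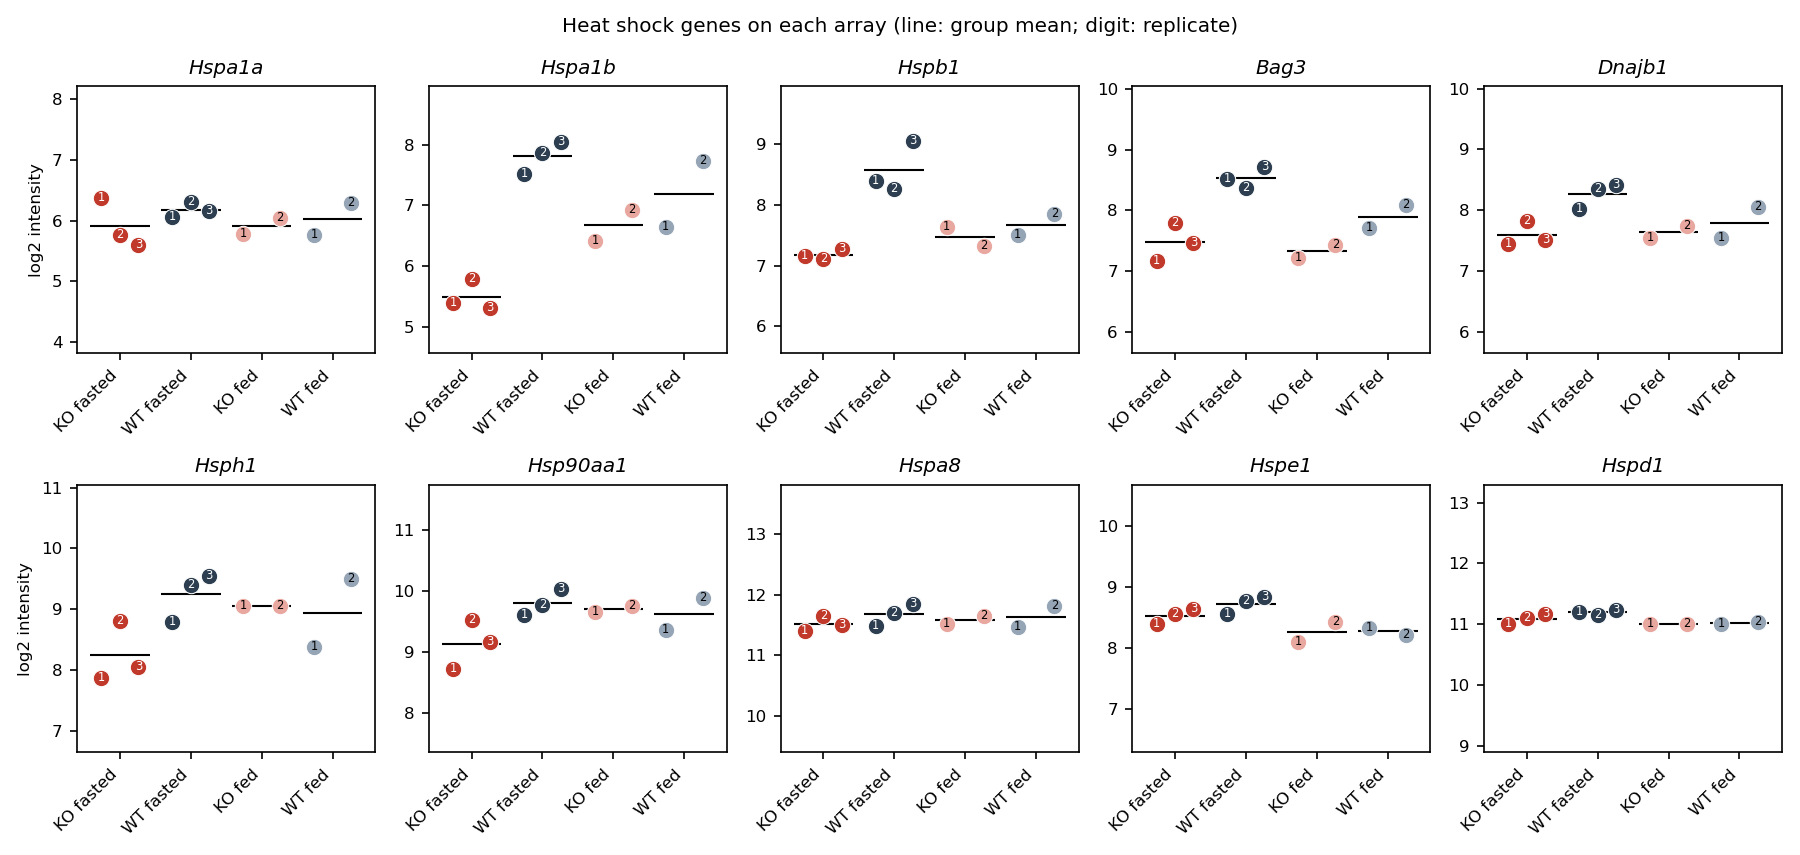
Log2 intensity (vertical axis, the same span in each panel) of the 10 heat shock genes on each array, in fasted knockout, fasted wild type, fed knockout and fed wild type. Each dot is an array with its replicate number and each line a group mean; for Hspa1b the 3 fasted knockout arrays lie between 5.32 and 5.79, below the other 7.

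Hspa1b encodes the stress-inducible cytosolic HSP70. It read 5.39, 5.79 and 5.32 in fasted knockout, against 7.52, 7.87 and 8.05 in fasted wild type. It read 6.42 and 6.92 in fed knockout, against 6.64 and 7.73 in fed wild type. The fasted knockout arrays were the lowest of all 10, and only 1 of the 3 lay above its array median, so part of that level is near the dim end of the array. The log2 difference of fasted knockout from fasted wild type was -2.31 (SE 0.27, adjusted p = 0.00433), with a 95% interval from -2.92 to -1.70. Within knockout, fasted arrays lay below fed ones without overlap, with a log2 difference of -1.17 (SE 0.31, adjusted p = 0.085). That comparison passed the test when either fed wild type array was left out (adjusted p = 0.0456 in both cases), which alters only the estimate of the spread. Fasted wild type overlapped fed wild type (0.62, SE 0.31, adjusted p = 0.179). This value rests on the fed wild type arrays: it was 1.17 without replicate 2, the high one (adjusted p = 0.0274), and 0.08 without replicate 1 (adjusted p = 0.897).

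Hspa1a, the copy of Hspa1b, read 6.38, 5.76 and 5.60 in fasted knockout, against 6.06, 6.30 and 6.16 in fasted wild type. It read 5.79 and 6.04 in fed knockout, against 5.77 and 6.29 in fed wild type. The groups overlapped in every comparison made, and fasted knockout differed from fasted wild type by -0.26 (95% interval -0.73 to 0.20, adjusted p = 0.444). These values lie not far above the array medians (5.44 to 5.57), so a fall may be hard to see with this probe set. Since the copies are nearly identical, signal of either can reach the probes of the other. A further probe set assigned to both genes lay between 1.25 and 3.34, above the array median on none of the 10 arrays, and was not used.

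Hspb1 encodes HSP27, a small heat shock protein that binds unfolded chains without ATP. It read 7.15, 7.11 and 7.27 in fasted knockout, against 8.40, 8.26 and 9.04 in fasted wild type. It read 7.63 and 7.32 in fed knockout, against 7.50 and 7.85 in fed wild type. Fasted wild type was the highest group without overlap and fasted knockout the lowest. The log2 difference of fasted knockout from fasted wild type was -1.39 (SE 0.20, adjusted p = 0.0063). Hspb1 was higher in fasted than in fed wild type by 0.89 (SE 0.22, adjusted p = 0.0186). That call did not survive omission of replicate 1 of fed wild type (0.72, adjusted p = 0.141). Within knockout the fasted arrays were below the fed ones by -0.30 (adjusted p = 0.494). A second Hspb1 probe set lay above the array median on only 1 array and was not used.

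Bag3 encodes an exchange factor that links HSP70 and small heat shock proteins to autophagy. It read 7.16, 7.80 and 7.46 in fasted knockout, against 8.52, 8.38 and 8.72 in fasted wild type. It read 7.22 and 7.43 in fed knockout, against 7.71 and 8.08 in fed wild type. The fasted genotypes did not overlap, and their log2 difference was -1.06 (SE 0.17, adjusted p = 0.00927). Bag3 was also the only member whose fed genotypes did not overlap, with a log2 difference of -0.57 (adjusted p = 0.474). It was higher in fasted than in fed wild type by 0.64 (SE 0.20, adjusted p = 0.0435), a call close to the threshold. Leaving out any 1 of 8 arrays ended that call, with adjusted p between 0.0516 (without fed wild type replicate 2) and 0.276 (without fed wild type replicate 1); only fasted knockout replicates 1 and 2 could be omitted without losing it.

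Dnajb1 encodes HSP40, the J domain partner of inducible HSP70. It read 7.44, 7.83 and 7.51 in fasted knockout, against 8.03, 8.35 and 8.42 in fasted wild type. It read 7.54 and 7.73 in fed knockout, against 7.54 and 8.05 in fed wild type. Fasted wild type stood above fasted knockout without overlap, by a log2 difference of -0.67 for knockout (SE 0.17, adjusted p = 0.0343). The call ended when the fit omitted replicate 2 (adjusted p = 0.0908) or 3 (0.116) of fasted wild type, or replicate 1 (0.126) or 3 (0.0723) of fasted knockout.

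Hsph1, the HSP110 exchange factor, read 7.87, 8.81 and 8.05 in fasted knockout, against 8.80, 9.40 and 9.54 in fasted wild type. It read 9.05 and 9.05 in fed knockout, against 8.38 and 9.50 in fed wild type. The fasted genotypes overlapped by 1 array, knockout replicate 2, and differed by -1.0 (SE 0.32, adjusted p = 0.0759). Without that array the difference was -1.28 and passed the test (adjusted p = 0.0441), as it did without either fed wild type array (adjusted p = 0.0478). Hsp90aa1, the inducible HSP90 that matures kinases and steroid receptors, read 8.71, 9.52 and 9.16 in fasted knockout, against 9.60, 9.77 and 10.04 in fasted wild type. It read 9.66 and 9.75 in fed knockout, against 9.35 and 9.88 in fed wild type. Fasted knockout lay below fasted wild type without overlap, by -0.67 (SE 0.21, adjusted p = 0.0706), and the difference passed without fasted knockout replicate 2 (-0.87, adjusted p = 0.0382).

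Hspa8, the constitutive HSC70 present in unstressed cells, read 11.40, 11.65 and 11.50 in fasted knockout, against 11.49, 11.70 and 11.85 in fasted wild type. It read 11.52 and 11.65 in fed knockout, against 11.47 and 11.81 in fed wild type. All groups overlapped, and the fasted genotypes differed by -0.16 (95% interval -0.45 to 0.14, adjusted p = 0.464), so a fall as large as that of Hspb1 lies outside the interval.

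Hspd1 and Hspe1 encode HSP60 and HSP10, which together form the folding chamber of the mitochondrial matrix. Hspd1 read 11.0, 11.10 and 11.16 in fasted knockout, against 11.20, 11.15 and 11.23 in fasted wild type. It read 11.01 and 11.01 in fed knockout, against 11.01 and 11.04 in fed wild type. Fasted wild type lay above fed wild type without overlap, by 0.17 (SE 0.10, adjusted p = 0.238). Hspe1 read 8.39, 8.55 and 8.64 in fasted knockout, against 8.56, 8.77 and 8.84 in fasted wild type. It read 8.10 and 8.43 in fed knockout, against 8.33 and 8.21 in fed wild type. Hspe1 rose with fasting in wild type by 0.45 (SE 0.14, adjusted p = 0.0451), a call close to the threshold. It ended when the fit omitted either array of fed wild type (adjusted p = 0.115 for replicate 1 and 0.187 for 2), replicate 2 (0.11) or 3 (0.124) of fasted wild type, or replicate 2 of fasted knockout (0.0604). Between the fasted genotypes, Hspd1 differed by -0.11 (95% interval -0.30 to 0.08) and Hspe1 by -0.20 (95% interval -0.47 to 0.08).

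**Figure D2:**
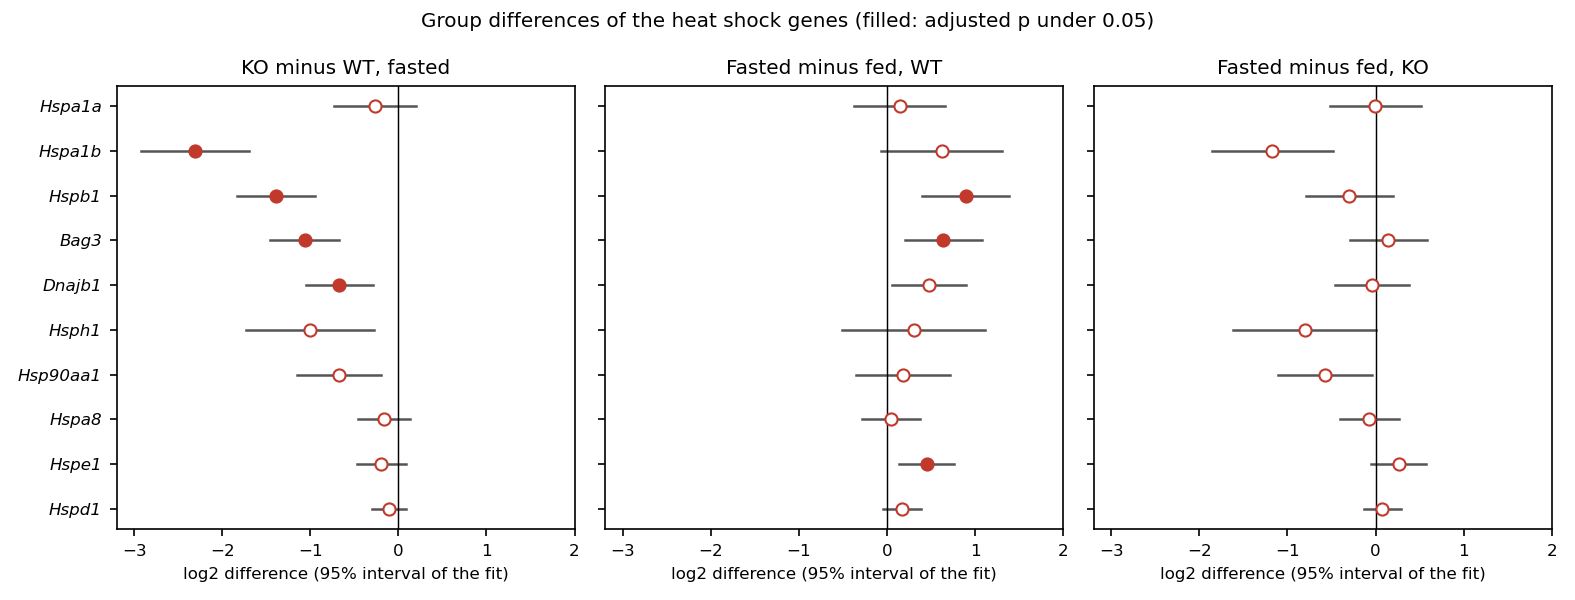
Log2 difference (horizontal axis) of each heat shock gene for knockout minus wild type in fasted liver, fasted minus fed in wild type, and fasted minus fed in knockout. Dots are differences, bars the 95% intervals of the fit, and filled dots passed an adjusted p of 0.05; Hspa1b, at -2.31 between the fasted genotypes, lies farthest from 0.

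In wild type, 3 of the 10 genes (Hspb1, Bag3 and Hspe1) were called higher in fasted than in fed liver, and none lower. Of all genes, 8.23% were called higher and 21.4% were called in either direction. All 10 differences were above 0, with a median of 0.38, against -0.02 over all genes. Groups did not overlap for 4 members, all higher in fasted liver, against 23% of all genes. Without fed wild type replicate 1, 0 of the 10 were called by limma, and without fasted wild type replicate 2 or 3 only 1 was (Hspb1). Fed wild type replicate 2 exceeded replicate 1 for 9 of 10 members, by a median of 0.44, against 49.6% of all genes.

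Fasting in knockout changed none of the 10 genes by limma, where 1.68% of all genes were called, and 2 (Hspa1b and Hsp90aa1, both lower) had an unadjusted p under 0.05, about the 19.2% of all genes that did. The median difference was -0.06, against 0.01 over all genes. Groups did not overlap for 4 members (Hspa1b, Hspb1, Hsph1 and Hsp90aa1), all lower in fasted knockout, against 18.5% of all genes. In fed liver, none of the 10 differed between knockout and wild type by limma, where 0.0861% of all genes were called, and 1 (Bag3) had an unadjusted p under 0.05, as did 8.63% of all genes. Bag3 was lower without overlap, as were 23.7% of all genes. That comparison has 2 arrays on each side.

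Whether fasting acted differently in knockout was tested by the genotype by fasting interaction. None of the 10 genes passed it in limma, where 2.11% of all genes did, and 3 (Hspa1b, Hspb1 and Hsp90aa1) had an unadjusted p under 0.05, as did 20.1% of all genes. The interaction of Hspa1b was -1.79 (SE 0.43, adjusted p = 0.0644), made of -1.17 in knockout and 0.62 in wild type. That of Hspb1 was -1.19 (SE 0.31, adjusted p = 0.0802), made of -0.30 in knockout and 0.89 in wild type. The Hspa1b interaction was -2.34 and passed when replicate 2 of fed wild type was omitted (adjusted p = 0.033), and it was -1.25 when replicate 1 was omitted (adjusted p = 0.143). All 10 estimates were below 0, with a median of -0.51, against 0.04 over all genes. This direction is not independent of the comparisons above, which use the same arrays.

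The clock split of the fasted knockout arrays allowed a look at replicate 3, which is 1 of the arrays behind the calls above. Replicate 3, whose clock score was like that of fasted wild type, lay below all 3 fasted wild type arrays for 7 of the 10 genes, against 31.8% of all genes. For Hspa1b, Hspb1, Bag3, Dnajb1 and Hsp90aa1 this already follows from the lack of overlap given above. Hspa1a and Hsph1 were the others, while Hspa8, Hspe1 and Hspd1 lay within the fasted wild type range. The Hspa1b value of replicate 3, 5.32, was the lowest of the 10 arrays. With that score added to the model, the difference of fasted knockout from fasted wild type was -2.55 for Hspa1b (adjusted p = 0.0486), -1.32 for Hspb1 (0.0896), -1.06 for Bag3 (0.111) and -0.79 for Dnajb1 (0.162). With replicate 3 as the only fasted knockout array, the spread came from the other groups alone, and the lone array is assumed to vary as they do. The difference was then -2.49 for Hspa1b (adjusted p = 0.0708), -1.30 for Hspb1 (0.108), -1.07 for Bag3 (0.078) and -0.75 for Dnajb1 (0.165). The number of called members dropped to 1 and 0. In these settings 34 and 6 of all 13942 genes were called.

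**Figure D3:**
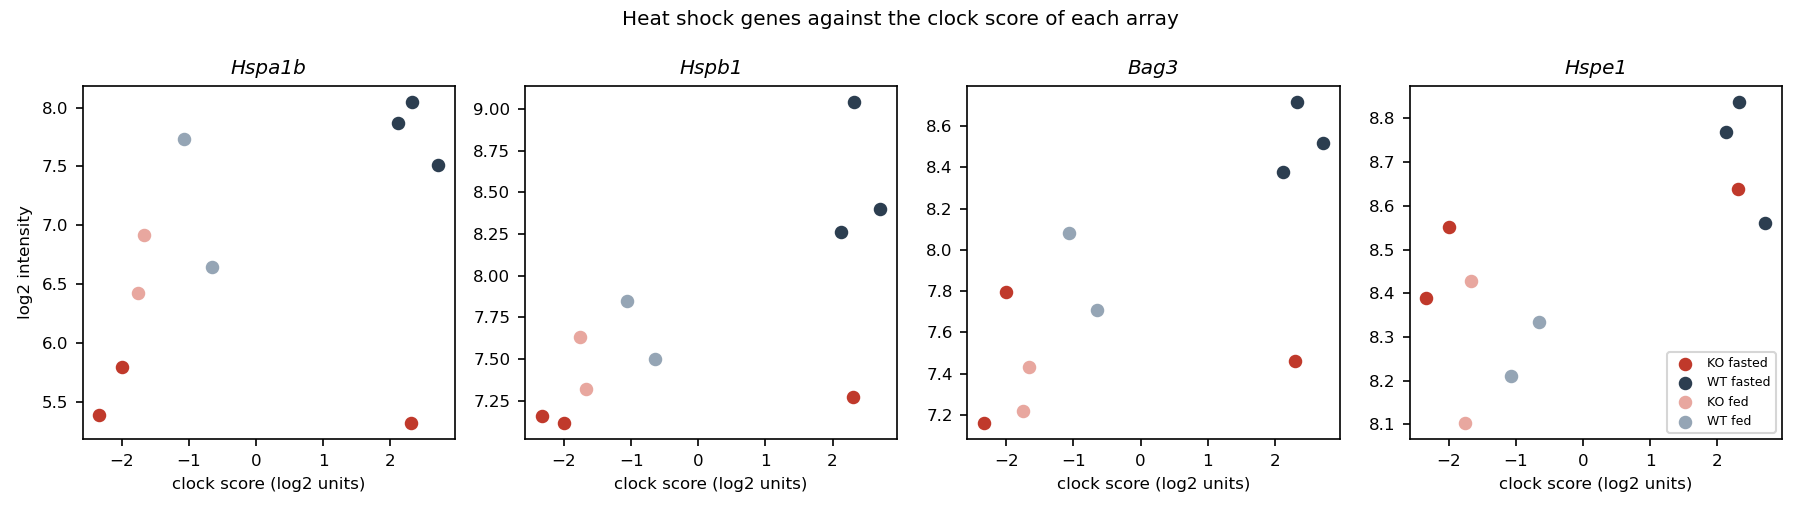
Log2 intensity of Hspa1b, Hspb1, Bag3 and Hspe1 (vertical axes) against the clock score of each array (horizontal axis, log2 units). Each point is an array, coloured by group; fasted knockout replicate 3, at a clock score of 2.30, stands among the fasted wild type arrays on the horizontal axis and below them in Hspa1b, Hspb1 and Bag3.

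Other features of the arrays moved with the same comparison. Summed intensity of 8 macrophage markers was 3649 to 4172 in fasted knockout, against 3019 to 3200 in fasted wild type. Of the 8, 4 were called higher in fasted knockout (6.68% of all genes were). The sum was 3466 to 3748 in fed knockout and 3298 to 4029 in fed wild type, so fasted wild type was the lowest group. Summed intensity of 5 cholangiocyte markers was 259 to 282 in fasted knockout, against 297 to 330 in fasted wild type, with none called. Only 1 of these 5 lay above the array median on all arrays and 1 did so on none, so this sum is partly dim signal. In bulk liver, fewer cells of a type and less RNA per cell cannot be told apart. Cirbp, which is induced by mild cold, read 6.33, 6.13 and 6.31 in fasted knockout, against 5.80, 5.59 and 5.58 in fasted wild type. It read 6.13 and 6.27 in fed knockout, against 6.15 and 6.06 in fed wild type. Fasted against fed, it was called lower in wild type (-0.45) and was not called in knockout (0.06). Immediate early genes respond within minutes to many stimuli. The mean of 8 of them was 7.56, 7.16 and 7.15 in fasted knockout, against 7.98, 7.83 and 8.0 in fasted wild type. It was 6.35 and 6.66 in fed knockout, against 6.46 and 6.46 in fed wild type. Atf3, described below as a called gene, is among these 8. The mean of 5 glucocorticoid target genes, Fkbp5 among them, was 8.22, 8.60 and 8.72 in fasted knockout. It was 8.88, 8.92 and 8.84 in fasted wild type. In fed liver the order was the reverse, with 8.35 and 8.18 in knockout against 7.56 and 7.75 in wild type. The part of these features in the heat shock differences was not tested.

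Beyond the 10 members, 96 further genes of the chaperone system were listed and 78 were tested. Of the others, 8 fell below the filter on dim probe sets, 5 share their probe set with another gene and 5 were not analysed here. Between the fasted genotypes, 7 of the 78 were lower in knockout and 3 higher, or 12.8%, close to the 11.1% of all genes called (4.43% lower and 6.68% higher). Their median difference was -0.09. Each of these 10 calls was lost in at least 3 of the 20 or 21 alternatives run, from 3 for Hspa2 to 14 for Cryab.

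Among relatives of the cytosolic HSP70 and HSP110 proteins, 2 of 6 were lower in fasted knockout. Hspa2, an HSP70 best known from the testis, differed by -0.89 (adjusted p = 0.0173), and it rose with fasting in wild type by 1.03 (adjusted p = 0.0071). Hspa4l, an HSP110 relative, differed by -0.70 (adjusted p = 0.0456), a call lost in 12 of 21 alternatives (adjusted p up to 0.214). Of 5 small heat shock proteins besides Hspb1, only Cryab, the alpha B crystallin, was lower in fasted knockout (-0.47, adjusted p = 0.0407). The Cryab call was lost in 14 of 21 alternatives, with adjusted p up to 0.124, among them the omission of any single array other than fasted knockout replicate 2. Hspb6 and Hspb8, the partner of Bag3, rose with fasting in wild type by 0.39 and 0.47 (adjusted p = 0.0214 and 0.0106).

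Of 16 HSP90 cochaperones, 1 was lower in fasted knockout. Fkbp5, an immunophilin that restrains the glucocorticoid receptor and is itself a glucocorticoid target, read 7.79, 8.18 and 8.28 in fasted knockout, against 9.17, 9.02 and 8.79 in fasted wild type (-0.91, adjusted p = 0.0261). It read 7.52 and 6.76 in fed knockout, against 6.55 and 6.27 in fed wild type. Its rise with fasting in wild type was 2.59 (adjusted p = 0.000318). None of 10 cytosolic J domain proteins besides Dnajb1 was called between the fasted genotypes by limma, and 2 had an unadjusted p under 0.05, against 28.6% of all genes. In fasted against fed wild type, Dnaja2 was higher by 0.39 and Dnajb6 by 0.35, while Dnajb5 was lower by 0.49 (adjusted p = 0.0192, 0.0279 and 0.0218).

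Bag5, another BAG domain exchange factor, was the only one of the 78 called in knockout fasting, where it rose by 0.80 (adjusted p = 0.0347), or 1.28% against 1.68% of all genes. It also rose in wild type, by 0.47 (adjusted p = 0.0411). These calls were lost in 12 and 11 of 20 alternatives, with adjusted p up to 0.242 and 0.207. Of 13 genes of the chaperonin TRiC and its partner prefoldin, 1 was higher in fasted knockout, the prefoldin subunit Vbp1 (0.38, adjusted p = 0.0305). The prefoldin genes Vbp1, Pfdn1 and Pfdn6 were the 3 of the 13 called lower with fasting in wild type, with differences of -0.40, -0.56 and -0.33.

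Of 16 further mitochondrial chaperones and proteases, 2 were lower and 1 higher in fasted knockout. Grpel2, an exchange factor of mitochondrial HSP70, differed by -0.64 (adjusted p = 0.0366), and Hscb, a J domain protein of iron-sulfur cluster transfer, by 0.78 (adjusted p = 0.0205). Hscb lay above the array median on 0 of the 3 fasted wild type arrays, so that level is near the dim end. Clpx, which unfolds substrates for the matrix protease Clpp, read 8.67, 8.67 and 10.42 in fasted knockout, against 11.06, 10.79 and 10.82 in fasted wild type (-1.64, adjusted p = 0.0305). Its fasted knockout arrays divided as the clock score did, with replicate 3 near wild type. The Clpx call was lost in 10 of 21 alternatives, among them the fit with the clock score added. Over these alternatives the difference lay between -2.23 and -0.43. The cause of this division was not tested. Hsf4, a relative of HSF1, was higher in fasted knockout (0.67, adjusted p = 0.0162) and fell by 0.84 with fasting in wild type (adjusted p = 0.0046). Atf3, a stress-induced transcription factor, read 5.13, 5.65 and 5.40 in fasted knockout, against 6.93, 7.03 and 7.16 in fasted wild type (-1.65, adjusted p = 0.018). It read 4.14 and 4.58 in fed knockout, against 4.77 and 6.38 in fed wild type (-1.21, not called). Only 1 of the 3 fasted knockout arrays and 0 of the 2 fed ones lay above the array median for Atf3.

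**Figure D4:**
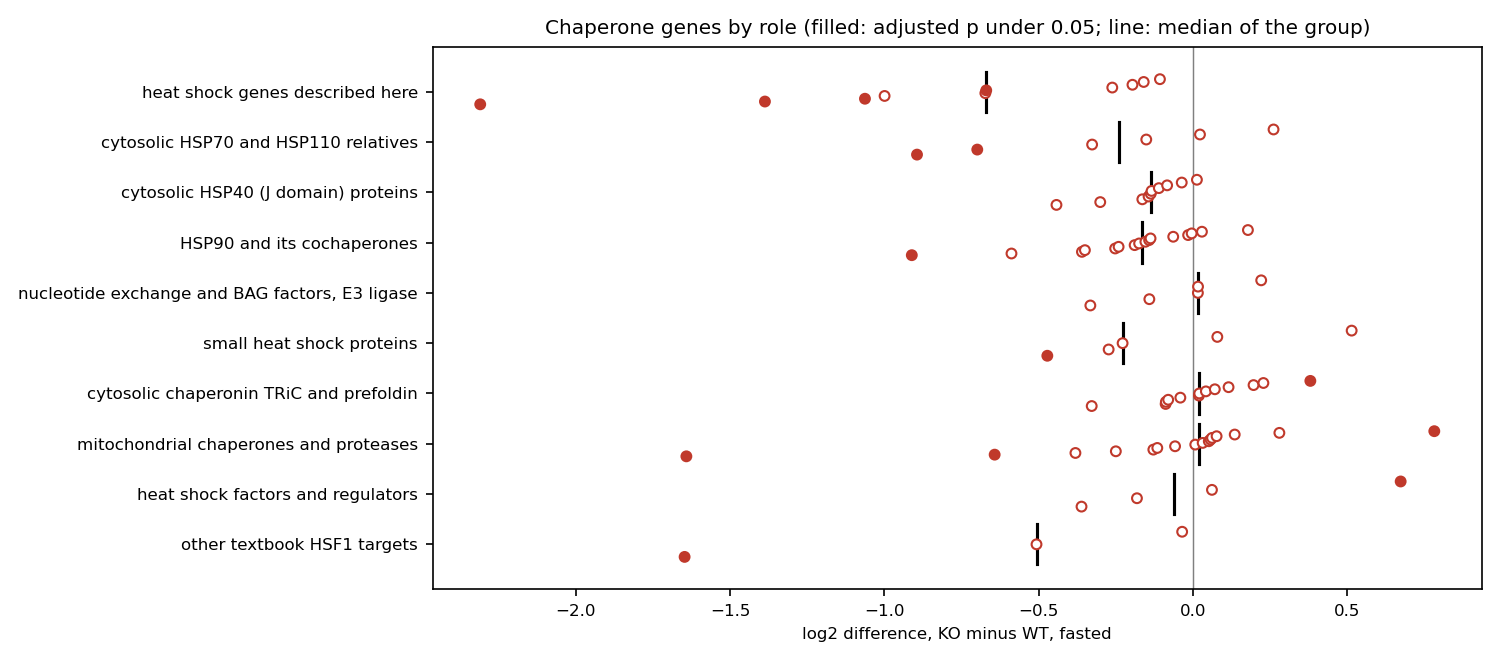
Log2 difference of fasted knockout minus fasted wild type (horizontal axis) for the 10 heat shock genes and for 78 other chaperone genes, by role. Each dot is a gene, filled where the adjusted p was under 0.05, and each line is a group median; the median of the 10 is -0.67 and that of the 78 is -0.09.

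Between fasted and fed wild type, 19 of the 78 other genes were called, 12 higher and 7 lower in fasted liver. That is 24.4%, against 21.4% of all genes (8.23% higher and 13.2% lower). These calls were lost in 0 (Fkbp5) to 18 (Pfdn6) of 21 alternatives. In fed liver 0 of the 78 were called by limma and 7 (8.97%) had an unadjusted p under 0.05, against 8.63% of all genes. The interaction was called for Fkbp5 and Grpel2 (2.56%, against 2.11% of all genes).

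The members also differed among arrays of 1 group. Fasted wild type replicate 3 exceeded replicate 1 for all 10 members, against 53.3% of all genes. In the same group, replicate 2 exceeded replicate 1 for 7 members, against 47.7% of all genes. In fasted knockout, replicate 2 exceeded replicate 1 for 8 of 10 members (52.3% of all genes) and replicate 3 for 7 (50.2%). Outside the list, the genes whose values were most like the mean centred profile of the members over the 10 arrays were Mavs (Pearson r 0.96, Spearman rho 0.92), Ptpn21 (0.94 and 0.87), Ago2 (0.94 and 0.94), P4ha1 (0.93 and 0.95) and Zbtb40 (0.93 and 0.90). These coefficients describe 10 arrays that share 4 groups, and no p is given. Since these genes were chosen for that profile, their own differences between groups were fixed by the choice and are not given as results.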

How the data were processed

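Liver RNA of 10 samples was read on Affymetrix Mouse Gene 2.1 ST arrays. The deposited values are linear normalized intensity of each probe set, made with RMA in Affymetrix Expression Console per the submitters' processing notes. Software versions and the genome build were not given in the sources used here. Each array had 228 to 489 values under 0.1, uncommon for RMA, and the exact summary is unknown. The table has 41345 probe sets, of which 23521 carry 1 gene symbol, 1814 several and 16010 none in the platform annotation. Probe sets above the array median on at least 2 arrays were kept, and the brightest single-symbol one stood for its gene, which left 13942 genes.

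The log2 of the deposited intensity was fitted with 4 group means over all 10 arrays in limma 3.58.1 (R 4.3.3) with empirical Bayes moderation, with Benjamini-Hochberg adjustment over all genes per contrast and a threshold of 0.05. The few arrays per group limit the precision. Members, gene lists, tests and alternatives were chosen with earlier results of these data known. Other chaperone genes were named by rule: up to 3 per role with the smallest p among those called, those needed to say which genes made up a count of 5 or fewer, and the 5 most correlated genes. Array alternatives were centring, quantile normalization, other filters, the mean of probe sets, moderation, array weights, a replicate block, the contrast's groups alone, the clock score, and omission of arrays.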

Additional observations from a re-analysis of the deposited data

Results flagged for a closer look

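Of the 78 other chaperone genes, 2 were called by the interaction test in limma, or 2.56%, close to the 2.11% of all genes. Genes were named in the text partly for their small p in these same comparisons. Fkbp5, the glucocorticoid-induced HSP90 cochaperone, had an interaction of -1.64 on the log2 scale (adjusted p = 0.0426), made of a difference of 0.95 between fasted and fed knockout and 2.59 between fasted and fed wild type. Grpel2, the exchange factor of mitochondrial HSP70, had an interaction of -1.35 (adjusted p = 0.0398), made of -0.22 in knockout and 1.13 in wild type. Grpel2 read 9.49, 9.77 and 9.88 in fasted knockout, against 9.75 and 10.13 in fed knockout. In wild type it read 10.29, 10.31 and 10.48 after fasting, against 9.49 and 8.98 in fed animals. The call was lost in 13 of 20 alternatives for Fkbp5 and in 12 of 20 for Grpel2, with adjusted p up to 0.13 and 0.124.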

How the results depend on the processing

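Of the 4 members lower in fasted knockout than in fasted wild type, 1 was still called with a clock score covariate and 0 with fasted knockout replicates 1 and 2 left out; omission of single arrays gave 3 to 6. Of the 3 members higher with fasting in wild type, 1 was called with no filter, 1 with the replicate block, 1 with the groups of the contrast alone and 0 with a clock score covariate, and omission of single arrays gave 0 to 3. For fasting in knockout, omission of single arrays gave 0 to 1 in place of 0. For the interaction, the count of 0 became 1 with the stricter filter (Hspa1b), 2 with trend and robust moderation (Hspa1b and Hspb1), 1 with the replicate block (Hspa1b) and 0 to 1 on omission of single arrays. No member was called between the fed genotypes in any alternative run, and no named gene reversed direction in a call. Hspa1a fell below the stricter filter. The labels give no pairing by replicate number. Of 13 same-number pairs of arrays, 1 had a correlation of deviations over 0.1 (range -0.17 to 0.11), against a range of -0.15 to 0.17 for other pairs. In groups of 2 arrays the deviations mirror each other, so these ranges are partly fixed and cannot exclude pairing or a shared batch. With the replicate block, 6 members were called between the fasted genotypes, Hsph1 and Hsp90aa1 in addition (adjusted p = 0.0405 for each). The Hsp90aa1 call was also made under the stricter filter (0.0485), and the Dnajb1 call was lost with no filter (0.0801). Dim probe sets near the array median, such as Hspa1b in fasted knockout, bound what the arrays can resolve.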

Other observations

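Hspa8 is the host gene of small nucleolar RNAs in its introns, and 1 probe set is assigned to both Snord14e and Hspa8. It read 9.56, 8.96 and 9.40 in fasted knockout, against 10.40, 10.15 and 9.93 in fasted wild type. It read 9.22 and 9.29 in fed knockout, against 9.22 and 9.42 in fed wild type. The fasted wild type arrays were the highest, without overlap with any other group. Of the 4 probe sets assigned to Hspa8 alone, 3 overlapped between the fasted genotypes, and in the other knockout lay just below wild type (9.32, 9.46 and 9.35 in fasted knockout, against 9.47, 9.83 and 9.84 in fasted wild type). The shared probe set cannot be assigned to either transcript and was not tested.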
